A study of Mus musculus with 5 samples.

Results

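Regulatory T cells (Tregs) sorted from the adipose tissue of lean mice were compared with Tregs sorted from lymph nodes (LN), with 1 messenger RNA library on each side. Genes entered the comparison if either library had a deposited value of 1 or more, and 13541 of the 49671 gene IDs in the table did. Both libraries came from 4-month C57BL/6 mice of genotype Foxp3Cre, which carry the Cre recombinase at Foxp3, and the labels name no floxed allele for them. The adipose library is called lean because its labels name no obesity. The sources used here do not give the number of mice pooled, the fat depot or the gate for Tregs. Values from an adipose library of 4-month obese Foxp3Cre mice, titled HFD (commonly short for high-fat diet), and from one of 10-month Foxp3Cre mice are set beside the main ones. Both of these are read against the same LN library, so the 3 comparisons share their control, and 10-month values come from a separately scaled table and are given in CPM (reads per 1000000 listed reads).

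Tregs restrain immune responses and depend on the transcription factor FOXP3. In visceral fat they take on a tissue program that rests on the nuclear receptor PPARG and on IL-33 acting through its receptor ST2, and they are known for interleukin-10, for control of fat inflammation and for effects on insulin sensitivity. Tregs of lymph nodes instead circulate through lymphoid tissue, with CCR7 for entry and sphingosine-1-phosphate receptors for exit.

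The listed values stood for 8540594 reads in lean adipose and 9694474 in LN Tregs. Values are the authors' scaled read counts, in which 1 read is worth 0.111 in lean adipose and 0.108 in LN. No replicate exists on either side, so no test was possible, and how far mice of 1 group differ is unknown. A gene is called higher or lower here when log2((value + 1)/(value + 1)) of lean adipose over LN is at least 2-fold either way. Folds are ratios of listed values with a 95% counting interval in parentheses, which covers counting error only. The libraries also differed outside any tissue program. Xist, which silences 1 X chromosome in female cells, had 0 in lean adipose and 239 in LN Tregs, and the Y-linked gene Ddx3y had 532 in lean adipose and 0 in LN Tregs. The obese library was like the lean one in both genes, with 3.602 CPM of Xist and 562 of Ddx3y, while the 10-month library had 440.4 CPM of Xist, like LN, so sex markers split the 3 adipose libraries. Gapdh, which encodes a glycolytic enzyme that cells in general need, had 1.002 in lean adipose and 1028 in LN Tregs. It was 103-fold lower in obese adipose than in LN Tregs, and had 639 CPM in 10-month adipose Tregs against 979 CPM in LN. Macrophage and dendritic cell markers summed to 1896 scaled counts in lean adipose and 99.1 in LN, and stromal markers to 1350.2 and 10.1. The part of sex, of genes near 0 and of other cells in the results below was not tested.

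In all, 5098 genes (37.6%) were higher in lean adipose and 4344 (32.1%) lower, and the median log2 ratio was 0.14. These shares are the background against which each gene group below is read. They include 2875 genes listed at 0 in LN and 2130 listed at 0 in lean adipose. Any such gene is called by construction, since values under 1 are listed as 0 and its other value is at least 1. The shares also depended on the level of the gene. Among the 3563 genes with a mean of both libraries under 5, 51.7% were higher and 40.9% lower, while among the 1897 genes with a mean of 100 to 1000, 21.4% were higher and 29.6% lower. The 117 genes whose mean reached 1000 leaned the most towards LN, with 43.6% lower, 21.4% higher and a median log2 ratio of -0.84.

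Many of the large ratios came from genes listed at 0 on 1 side. The deposited tables list values under 1 as 0, but the authors' deposited log2 fold changes were computed before that step, so that the reads behind most such zeros could be recovered. Of 532 genes listed at 0 in LN with 20 or more in lean adipose, 393 had no read in LN and 139 had from 1 to 9 reads. Of 354 genes listed at 0 in lean adipose with 20 or more in LN, 241 had no read in lean adipose and 113 had up to 8. At 100 or more in LN, 23 genes were listed at 0 in lean adipose, 15 of them with no read. Of these 23, 20 had 20 CPM or more in 10-month adipose Tregs and 5 reached 20 in obese adipose Tregs. Examples are Xist, the respiratory complex I gene Ndufs3 (0 against 173, with 0 CPM in obese and 109 in 10-month adipose Tregs) and the mitotic cyclin gene Ccnb2 (0 against 120.3, with 29.1 and 81.9 CPM). In the other direction, 59 genes with 100 or more in lean adipose were listed at 0 in LN, 40 of them with no read, and 53 reached 20 in obese and 32 reached 20 CPM in 10-month adipose Tregs.

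**Figure D1:**
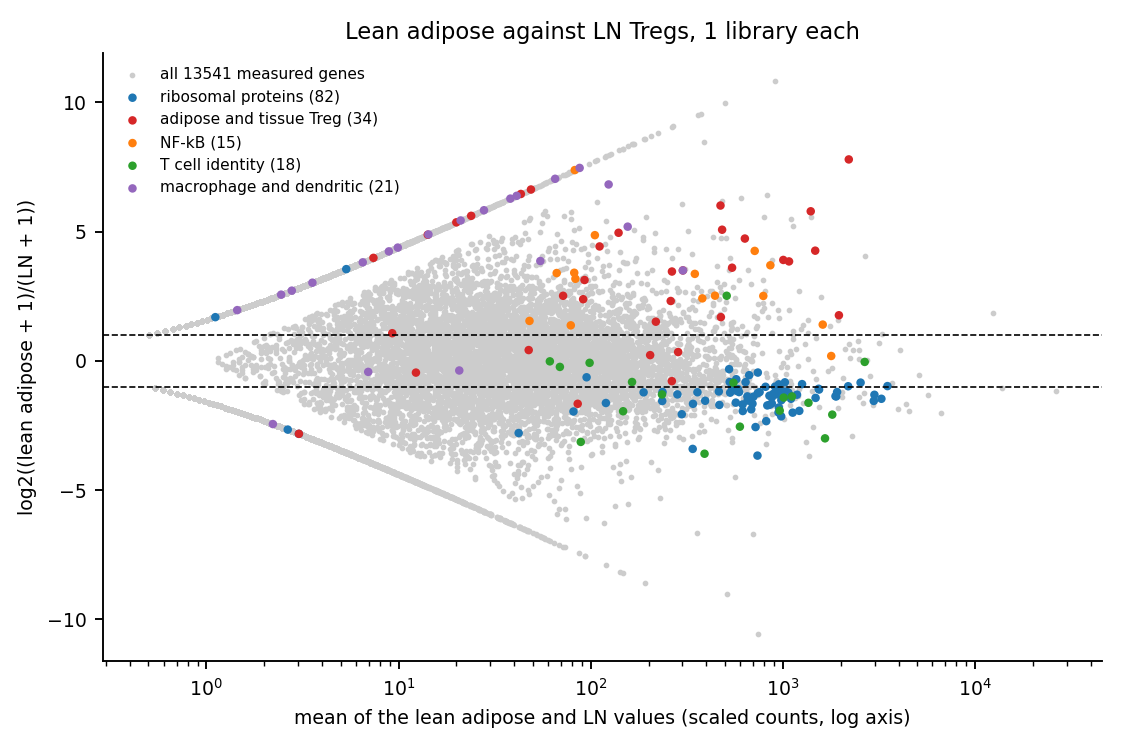
Log2 ratio of lean adipose over LN Tregs (vertical axis) against the mean of both values (horizontal log axis) for all 13541 measured genes, with 5 gene lists in colour and dashed lines at 2-fold. The diagonal edges are genes listed at 0 in 1 library. Adipose Treg and NF-kB genes lie mostly above the upper line, at all levels, and ribosomal protein and T cell identity genes mostly below the lower one.

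Genes abundant on both sides gave ratios that rest on reads in both libraries. Of the 4468 genes at 20 or more in both libraries, 779 (17.4%) were higher and 988 (22.1%) lower. The highest ratio among them belonged to the ST2 gene Il1rl1. Next came Hilpda, whose product blocks triglyceride breakdown at lipid droplets, at 1567 in lean adipose and 31.7 in LN Tregs, 49.4-fold higher (44.0 to 55.6). Dennd4a, a gene of a RAB exchange factor family, had 2754 in lean adipose and 57.9 in LN Tregs. It was 47.5-fold higher (43.6 to 51.9), and against the same LN library 38.1-fold higher in obese and 31.1-fold higher in 10-month adipose Tregs. Mt1, a metallothionein that binds zinc, had 2210.3 in lean adipose and 59.1 in LN Tregs, 37.4-fold higher (34.3 to 40.8), but was only 5.54-fold higher in 10-month adipose Tregs. The other genes among the 12 highest were Nr4a1, Neurl3, Cep85, Kdm6b, Areg, Got1, Kctd12 and Itgav, which were from 19.3-fold to 34.8-fold higher. Cep85, a centrosome gene, was 24.5-fold higher in obese and 3.54-fold higher in 10-month adipose Tregs, beside 27.7-fold higher (24.8 to 31.1) in lean.

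At the low end stood Limd2, a LIM domain gene, with 47.1 in lean adipose and 1077 in LN Tregs, 22.9-fold lower (20.7 to 25.3). Ube2v2, a cofactor of ubiquitin conjugation, had 21.6 in lean adipose and 424 in LN Tregs, and Arpc5l, an actin nucleation subunit, had 25.2 in lean adipose and 388 in LN Tregs. Ms4a6b, a membrane gene known from Tregs, had 194 in lean adipose and 2528 in LN Tregs. The rest of the 12 lowest were Rpl17, Cd28, Rpl7a, Ginm1, Lsm4, Sumo2, Psmd4 and Cd96, from 9.16-fold to 12.8-fold lower. Of these 12 genes, Cd28 had more CPM in 10-month adipose than in LN Tregs, 1125 against 689. The others were lower in 10-month adipose than in LN Tregs, but by less than in lean. Their folds there went from 1.36-fold lower for Ginm1 to 5.07-fold lower for Ube2v2. In obese adipose Tregs the 12 genes went from 2.06-fold lower for Psmd4 to 34.8-fold lower for Ube2v2. By read number, the RNA with most reads in lean adipose was the nuclear noncoding RNA Malat1, at 19463 against 5399 in LN, and in LN it was Tmsb4x, which encodes the actin-binding peptide thymosin beta 4, at 36474 against 16463. Ctla2a, the gene of a protease inhibitor, ranked among the 8 most abundant in lean adipose, with 5068 in lean adipose and 308 in LN Tregs. So did Dgat1, at 4389 in lean adipose and 18.8 in LN Tregs. Ppia, mt-Co1, mt-Cytb, Cd52 and AW112010 ranked among the 8 in LN and not in lean adipose.

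Genes that define Tregs in any tissue did not lean one way. Of 17 measured core Treg genes, 4 were higher and 6 lower, with a median log2 ratio of 0.06. Foxp3 (ENSMUSG00000039521), the lineage factor, had 206 in lean adipose and 55.1 in LN Tregs, 3.73-fold higher (3.38 to 4.12). Its value was above that of LN in all 3 adipose libraries, with 52.5 in LN, 216 in lean, 180.1 in obese and 185 in 10-month adipose Tregs in CPM. Ikzf2, which encodes the FOXP3 partner Helios, had 2556 against 2447. Il2ra, the high-affinity interleukin-2 receptor chain CD25, had 1446 in lean adipose and 306 in LN Tregs, 4.73-fold higher (4.54 to 4.92), and 307 CPM in obese against 1413 in 10-month adipose Tregs, so that the obese library lay near LN and the other 2 above it. Ctla4, an inhibitory receptor gene, was 1.97-fold lower (1.91 to 2.03), at 672 against 1325, 1.60-fold lower in obese and 2.18-fold higher in 10-month adipose Tregs. Tigit, another inhibitory receptor gene, was 2.24-fold higher (2.04 to 2.45). The lower members were Itgae, Gpr83, Entpd1, Izumo1r, Capg and Nrp1. Itgae, the integrin chain CD103, had 186 in LN and 1 read in lean adipose Tregs, beside 31.9 and 26.9 CPM in obese and 10-month ones. Entpd1, the ATP-degrading enzyme CD39, had 7.80 in lean adipose and 50.7 in LN Tregs.

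Genes known from adipose and other tissue Tregs were the most shifted T cell group. Of 34 measured members, 27 were higher and 2 lower, with a median log2 ratio of 3.55. The same medians against LN were 2.67 for obese and 3.64 for 10-month adipose Tregs. This list was drawn up from knowledge of adipose Tregs and with earlier results of these libraries known, so its direction is no independent evidence. Among its transcription factors, 10 of 14 were higher. Pparg (ENSMUSG00000000440) had 40.0 in lean adipose and no read in LN. Its values in obese and 10-month adipose Tregs were 31.5 and 212 CPM. Irf4, a factor of effector Tregs, had 272 in lean adipose and 7.80 in LN Tregs, 34.8-fold higher (27.6 to 44.7). It was 6.38-fold higher in obese and 30.1-fold higher in 10-month adipose Tregs. Rora, a nuclear receptor of tissue Tregs, had 2014 in lean adipose and 139 in LN Tregs, 14.5-fold higher (13.7 to 15.3), and Prdm1, which encodes the effector factor BLIMP1, had 123 in lean adipose and 20.7 in LN Tregs, 5.95-fold higher (5.10 to 6.98). Fosl2, an AP-1 factor, showed one of the largest ratios among them, with 934 in lean adipose and 13.5 in LN Tregs, 69.0-fold higher (57.8 to 83.0). Batf and Maf, effector factors too, were close on both sides, Batf at 219.8 against 188 and Maf at 319 against 251. The lower members included Il1r2, a decoy receptor gene for interleukin-1.

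On the effector side 17 of 20 measured members were higher. Areg, which encodes the tissue repair factor amphiregulin, had 1224 in lean adipose and 45.2 in LN Tregs, 27.1-fold higher (24.6 to 30.0). It was 12.6-fold higher in obese and 45.2-fold higher in 10-month adipose Tregs. Gzmb, the cytotoxic protease granzyme B, had 168 in lean adipose and 18.3 in LN Tregs, 9.15-fold higher (7.80 to 10.8), and was 1.85-fold higher in obese and 10.1-fold higher in 10-month adipose Tregs. Klrg1, a marker of differentiated tissue Tregs, had 82.5 in LN, 458 in lean, 170.3 in obese and 1365 in 10-month adipose Tregs in CPM, which placed the 10-month library highest. Penk, the gene of the opioid precursor proenkephalin, did not follow the group, with 194 in lean adipose and 335 in LN Tregs, 1.72-fold lower (1.63 to 1.83), although it had 631 CPM in 10-month adipose against 319 in LN Tregs.

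**Figure D2:**
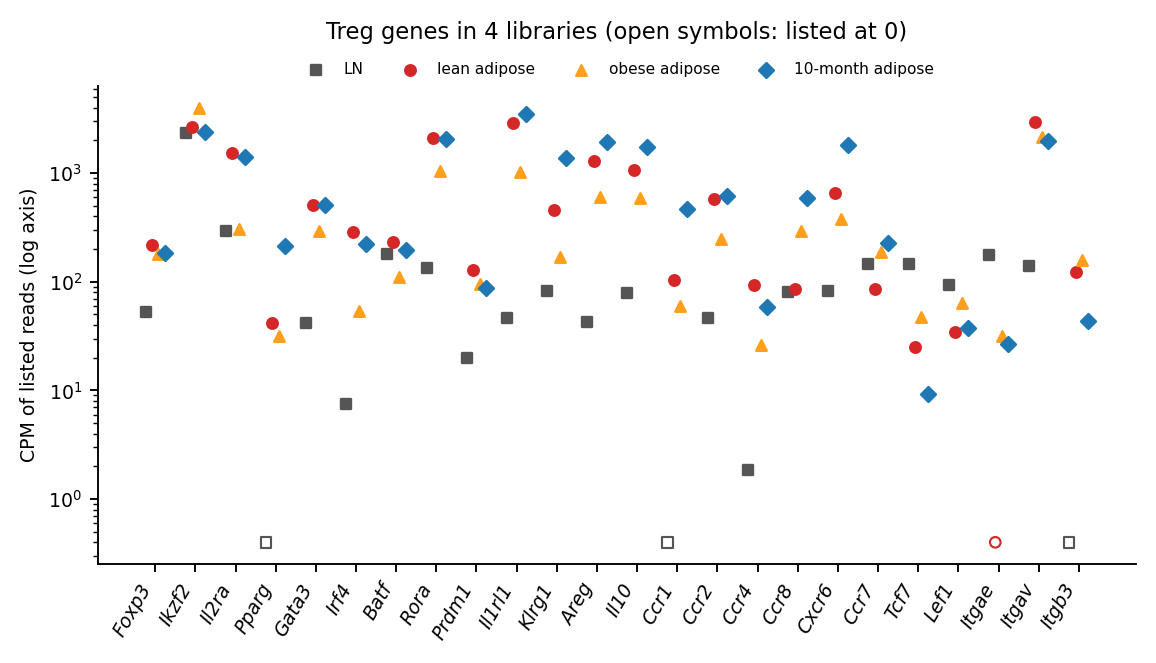
CPM (reads per 1000000 listed reads, log axis) of 24 Treg and trafficking genes in LN, lean adipose, obese adipose and 10-month adipose Tregs, 1 library each, with open symbols at the bottom for values listed at 0. Il1rl1, Irf4, Rora, Areg and Ccr2 are higher in all 3 adipose libraries than in LN, Il2ra is higher in lean and 10-month and close to LN in obese adipose, and Tcf7 is lower in all 3.

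Genes that mark all T cells were mostly lower in lean adipose. Of 18 members, 11 were lower and 1 higher, and their summed level was 7979 scaled counts against 19022 in LN. Cd3e, a chain of the T cell receptor (TCR) complex, had 135 in lean adipose and 335 in LN Tregs, 2.47-fold lower (2.31 to 2.64). Lat, the adaptor that relays TCR signals, had 174 in lean adipose and 1021 in LN Tregs, 5.86-fold lower (5.55 to 6.18). Cd28, the costimulatory receptor gene, was 12.2-fold lower (11.2 to 13.4), at 59.1 against 724. Cd4 itself was level, at 96.1 against 101. In such bulk libraries fewer cells of a type and less RNA per cell cannot be told apart. The summed level in CPM was 18121 CPM in LN, 8387 in lean, 10114 in obese and 12757 in 10-month adipose Tregs, and the median log2 ratio was -1.40 for lean, -0.97 for obese and -0.39 for 10-month adipose Tregs. An exonic length was available for 15 members (length is described with the ribosomal proteins below). The median log2 ratio of these 15 was -1.299, and -0.54 after centring on genes of like length. After centring, 6 of the 15 were lower, against 27.5% of all coding genes with a length. The part of length in these values was not tested.

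Variable segments of the TCR were lower as well. Of 74 measured alpha and beta segments, 52 were lower and 11 higher, and they summed to 379 against 1816 scaled counts. Beta segments made up most of the uniform part, with 19 of 20 lower. Trbv19 had 2.005 in lean adipose and 127 in LN Tregs, and Trbv2 and Trbv13-1 had 93.2 and 90.1 in LN and no read in lean adipose. Alpha segments were more mixed, with 33 of 54 lower and 11 higher, and 28 of the 54 were listed at 0 in lean adipose. Reads of near-identical segments may have been split by the authors' counting, so single segments are uncertain. TCR signalling genes as a group were near balance (4 of 19 higher and 4 lower). Malt1, which links the TCR to NF-kB, had 226 in lean adipose and 69.1 in LN Tregs, 3.27-fold higher (2.99 to 3.58), and Prkcq, the kinase upstream of it, had 25.5 in lean adipose and 134 in LN Tregs, 5.26-fold lower (4.57 to 6.09).

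Most receptors for inflammatory chemokines were higher in lean adipose Tregs. Of 9 measured CC receptor genes, 6 were higher and 1 lower, with a median log2 ratio of 2.33. Ccr4, a receptor of tissue-homing T cells, had 88.8 in lean adipose and 1.95 in LN Tregs, and Ccr3, known from eosinophils and adipose Tregs, had 108 in lean adipose and 11.6 in LN Tregs, 9.33-fold higher (7.63 to 11.5). Ccr2, the receptor for CCL2, had 556 in lean adipose and 48.3 in LN Tregs, 11.5-fold higher (10.4 to 12.7), and is a monocyte gene as well. Ccr8, typical of tissue Tregs, was level in lean adipose, at 81.9 against 84.5, while it was 3.21-fold higher in obese and 7.39-fold higher in 10-month adipose Tregs. Ccr6 was the lower member. Only 3 members had 20 or more in both libraries, and their median was 0.40, so the group median rests on genes that are low in LN.

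Genes of lymphoid homing, tissue exit and resting T cells differed by gene, with 6 of 18 lower and 3 higher. The shares of all measured genes were 32.1% lower and 37.6% higher. Some transcription factors of resting T cells were among the lower members. Tcf7 had 23.8 in lean adipose and 153 in LN Tregs, 6.43-fold lower (5.56 to 7.46), its relative Lef1 was 3.01-fold lower (2.64 to 3.44), and Id3, an inhibitor of E proteins, was 3.36-fold lower (3.10 to 3.64). S1pr1, the exit receptor, and Klf2, its regulator, stayed within 2-fold, S1pr1 at 86.5 against 108 and Klf2 at 262 against 217. Il7r, the interleukin-7 receptor chain of resting and memory T cells, had 1458 against 807. The higher members were the tissue receptor gene Cxcr6, the retention receptor gene Cxcr4 and the phosphatase gene Dusp10. Cxcr6 had 628 in lean adipose and 86.0 in LN Tregs, 7.30-fold higher (6.78 to 7.88), and was 4.07-fold higher in obese and 22.1-fold higher in 10-month adipose Tregs. Cxcr4 had 219 in lean adipose and 39.1 in LN Tregs, 5.61-fold higher (5.02 to 6.30). Cxcr3, a receptor of type 1 effector cells, was lower, at 29.2 against 111, 3.79-fold lower (3.30 to 4.36), but had 120.5 CPM in obese adipose against 105.3 in LN Tregs.

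Integrins, which bind matrix and other cells, differed chain by chain. Of 14 measured genes, 5 were higher and 3 lower, beside 37.6% and 32.1% of all measured genes. Among the 14, 4 were listed at 0 in LN and so could only be called higher. Itgav, the alpha V chain, had 2803 in lean adipose and 145 in LN Tregs, 19.3-fold higher (18.3 to 20.4). Its beta partners differed: Itgb3 had 116 in lean adipose and no read in LN, while Itgb8, the partner used by Tregs to activate TGF-beta, had 76.7 against 47.5, 1.61-fold higher (1.43 to 1.82). Itga1, a collagen receptor chain of tissue T cells, and Itga5, a fibronectin receptor chain, had 31.0 and 23.5 in lean adipose and no read in LN. Itgal, a chain of LFA-1, was 1.66-fold lower (1.57 to 1.75), and the lower genes were Itgae, Itga6 and Itgb2. Itgb3 and Itga5 are also expressed by macrophages and platelets, and Itgam by macrophages. The part of these cells in the integrin values was not tested.

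Cytokine genes leaned towards lean adipose, with 13 of 20 higher and 4 lower (median 1.92). Among the 20, 6 were listed at 0 in LN and 2 in lean adipose. All but 1 of the 8 genes for suppression and repair were higher. Fgl2, a suppressive factor that Tregs secrete, had 843 in lean adipose and 66.2 in LN Tregs, 12.7-fold higher (11.7 to 13.9). Tgfb1 had 31.6 in lean adipose and 8.77 in LN Tregs, 3.61-fold higher (2.81 to 4.68), while Ebi3, a subunit of interleukin-35, was 2.20-fold lower (1.76 to 2.76). Lgals3, which encodes the lectin galectin-3, had 271 in lean adipose and 13.6 in LN Tregs, 19.9-fold higher (16.6 to 24.0), and is a macrophage gene as well. Helper cytokines were mixed. Il5, a type 2 cytokine gene, had 86.7 in lean adipose, with 24.3 and 169.7 CPM in obese and 10-month adipose Tregs and no read in LN, and Il13 had 2.23 and was listed at 0 in LN. Il6, an inflammatory cytokine gene, had 313 in lean adipose, no read in LN, 42.0 CPM in obese adipose and was listed at 0 in 10-month adipose Tregs. Il1rn, the interleukin-1 receptor antagonist gene of macrophages, had 63.0 and no read in LN. Sums of stromal and of macrophage and dendritic markers were both higher in lean adipose than in LN, and their part in Il6 and Il1rn was not tested. Lymphotoxin genes were lower: Lta had 286 in LN and no read in lean adipose, and Ltb had 121 in lean adipose and 964 in LN Tregs, 7.98-fold lower (7.50 to 8.51). Lta was listed at 0 in obese adipose and had 2.18 CPM in 10-month adipose Tregs. Ifng was close in the 4-month libraries (112 against 138) and listed at 0 in 10-month adipose Tregs.

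Cytokine receptor genes were higher in 10 of 22 cases, beside 37.6% of all measured genes, and lower in 2. The interleukin-2 receptor beta chain Il2rb had 217 in lean adipose and 74.2 in LN Tregs, 2.93-fold higher (2.68 to 3.20). Il10ra, the ligand-binding chain for interleukin-10, had 252 in lean adipose and 30.1 in LN Tregs, 8.36-fold higher (7.38 to 9.51). Il4ra, the chain shared by the receptors of interleukin-4 and interleukin-13, had 97.8 in lean adipose and no read in LN, with 96.7 and 106 CPM in obese and 10-month adipose Tregs, so the 3 adipose libraries stood together. Il6ra and Il6st, the receptor chains for interleukin-6, stayed within 2-fold, Il6ra at 51.9 against 103 and Il6st at 96.8 against 78.3.

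Downstream of ST2, 5 of 9 measured adaptors and kinases were higher and 2 lower. Map3k7, which encodes the kinase TAK1, had 77.1 in lean adipose and 9.96 in LN Tregs, 7.74-fold higher (6.22 to 9.73), its partner Tab2 was 4.73-fold higher (4.30 to 5.22) and Traf6, the ubiquitin ligase before them, 3.37-fold higher (2.96 to 3.84). The adaptor gene Myd88 was listed at 0 in lean adipose and at 1.30 in LN, and Irak4 had 9.58 in lean adipose and 25.4 in LN Tregs, 2.66-fold lower (2.07 to 3.44). Il33, the ligand gene, was not measured in either library.

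STAT factors, which carry cytokine signals to the nucleus, differed member by member, with 7 of 13 STAT, SOCS and PIM genes higher and 3 lower. Stat5a, which acts below interleukin-2, had 196 in lean adipose and 7.90 in LN Tregs, 24.9-fold higher (19.7 to 31.9). Stat3 was 7.24-fold higher (6.79 to 7.73) and Stat4 7.96-fold higher (7.53 to 8.42), at 832 against 115 and 1210.5 against 152. Among the feedback inhibitors Socs3 had 129 in lean adipose and 10.3 in LN Tregs, 12.5-fold higher (10.1 to 15.6), Socs1 was 2.28-fold lower (2.01 to 2.58) and Cish was level at 56.4 against 50.7.

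Of all signalling groups, NF-kB was the most uniform: 14 of 15 genes were higher and 0 lower, with a median log2 ratio of 3.18, and the median was 2.07 for obese and 2.49 for 10-month adipose Tregs. NF-kB is the factor family that TCR, TNF receptor and ST2 signals activate. All 5 subunit genes were higher. Rela had 204 in lean adipose and 6.06 in LN Tregs, 33.7-fold higher (25.8 to 44.8). Rel, a subunit needed for Treg development, had 1358 in lean adipose and 70.3 in LN Tregs, 19.3-fold higher (17.9 to 20.9), and Nfkb1 had 1599.9 in lean adipose and 122 in LN Tregs, 13.1-fold higher (12.3 to 13.9). Nfkb2 and Relb, of the alternative branch, were 11.3-fold higher (9.42 to 13.7) and 2.63-fold higher (2.34 to 2.96). Inhibitor genes, which NF-kB induces, differed in size. Tnfaip3, the ubiquitin editor A20, had 2341 in lean adipose and 885 in LN Tregs, 2.65-fold higher (2.58 to 2.72), and Nfkbiz was 5.72-fold higher (5.46 to 5.99). Nfkbia, the classical inhibitor gene, was the only member under 2-fold, at 1902 against 1669. Icam1, an adhesion target gene that other cell types share, had 165 and no read in LN. Centring on genes of like length placed all 15 past 2-fold, against 33.9% of all coding genes with a length, with a median of 3.27.

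Early response genes were higher in 9 of 14 cases and lower in 1. Nr4a3 and Nr4a2, orphan receptors that TCR signals induce, had 998 and 311 in lean adipose against 62.5 and 58.7 in LN. Ier3, a survival gene of the stress response, had 213 in lean adipose and 2.06 in LN Tregs. Egr1 was 2.93-fold higher (2.59 to 3.31), while Myc and Zfp36 stayed within 2-fold, at 180.4 against 116 and 409.8 against 230.2. In the AP-1 family 6 of 14 genes were higher, near the 37.6% of all measured genes, and 2 lower. Atf3, a stress-induced member, had 229.6 in lean adipose and 9.10 in LN Tregs, 25.2-fold higher (20.3 to 31.8), and was 24.1-fold higher in obese and 71.5-fold higher in 10-month adipose Tregs. Jun had 126 in lean adipose and 47.5 in LN Tregs, 2.65-fold higher (2.37 to 2.97). Fos went the other way, with 189.7 in lean adipose and 462 in LN Tregs, 2.44-fold lower (2.30 to 2.58), yet had 632 CPM in 10-month adipose against 440.2 in LN Tregs, the reverse order.

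Feedback genes that end kinase and G protein signals were higher in 8 of 15 cases and lower in 2. Dusp5, a phosphatase for nuclear ERK, had 409 in lean adipose and 18.7 in LN Tregs, 21.8-fold higher (18.7 to 25.6), and Dusp16 had 63.9 in lean adipose and 2.82 in LN Tregs. Dusp6, the phosphatase for cytoplasmic ERK, had 5.79 in lean adipose and 57.2 in LN Tregs, 9.87-fold lower (7.41 to 13.4). Rgs10, which speeds the end of G protein signals, had 64.8 in lean adipose and 539 in LN Tregs, 8.32-fold lower (7.63 to 9.08). Rgs2 was higher, at 2524 against 1001, and Rgs1, the most abundant, stayed within 2-fold, at 2647 against 4734. Among the 8 members at 20 or more in both libraries the median log2 ratio was -0.34, so the sign of the group depends on its low members.

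Costimulatory and checkpoint receptors went both ways (7 of 20 higher and 4 lower, beside 37.6% and 32.1% of all measured genes). Pdcd1, the PD-1 gene, had 169 in lean adipose and 3.79 in LN Tregs. Icos, a costimulatory receptor gene of effector Tregs, was lower in the 4-month libraries, with 302 in lean adipose and 1311 in LN Tregs, 4.34-fold lower (4.16 to 4.52), 4.07-fold lower in obese and 1.09-fold lower in 10-month adipose Tregs. Tnfrsf8, the CD30 gene, had 46.3 in lean adipose and 7 unlisted reads in LN, and Tnfrsf1b, the TNF receptor 2 gene, had 94.5 against 73.7. Cd160 had 47.0 in LN and no read in lean adipose. In the BCL2 family, which sets cell survival, 5 of 11 were higher and 2 lower. The anti-death genes differed from each other: Bcl2 had 95.6 in lean adipose and 422 in LN Tregs, 4.42-fold lower (4.10 to 4.76), while Bcl2l1, the BCL-XL gene, had 108 in lean adipose and 18.8 in LN Tregs, 5.73-fold higher (4.88 to 6.78). Mcl1 was level at 263 against 275. The death-promoting genes Pmaip1 and Bcl2l11 were 13.4-fold higher (11.4 to 16.0) and 8.32-fold higher (6.42 to 10.9).

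**Figure D3:**
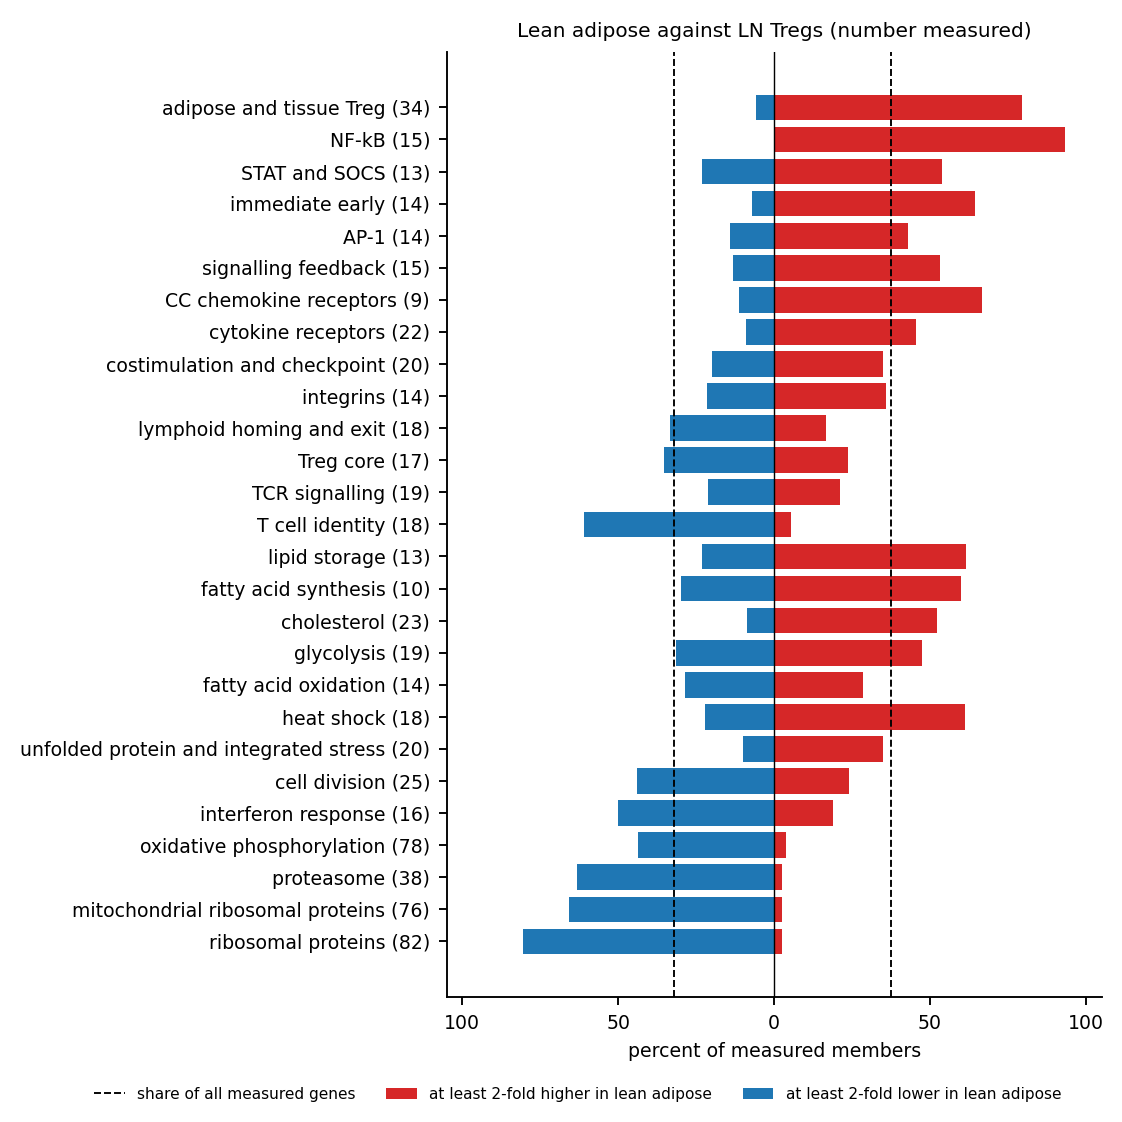
Percent of measured members of 27 gene lists at least 2-fold higher (red, right) or lower (blue, left) in lean adipose than in LN Tregs, with the number measured in parentheses and dashed lines at the shares of all measured genes, 37.6% higher and 32.1% lower. NF-kB and adipose Treg genes reach the farthest right, and ribosomal protein genes the farthest left.

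Lipid genes differed by pathway. Storage genes were higher in 8 of 13 cases and lower in 3 (median 2.45). Dgat1, which makes triglyceride in the last step of its synthesis, was 233-fold higher (201 to 272) and was 119-fold higher in obese and 161-fold higher in 10-month adipose Tregs. Its counterpart Dgat2 had 28.4 in lean adipose and no read in LN. Plin2, the coat protein of lipid droplets, had 378 and no read in LN, with 501 and 529 CPM in obese and 10-month adipose Tregs. Hilpda, described above, inhibits the lipase encoded by Pnpla2. Pnpla2 had no read in lean adipose and 15.1 in LN, but 15.9 CPM in obese and 28.2 CPM in 10-month adipose against 14.3 CPM in LN Tregs. The defining adipocyte genes Adipoq, Plin1, Cidec, Lep, Retn, Cfd, Car3, Adrb3 and Pck1 had no value of 1 or more in either library, so none of the 9 adipocyte markers was measured.

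Uptake and activation genes were higher in 7 of 12 cases, beside 37.6% of all measured genes. Among the 12, 5 were listed at 0 in LN and so could only be called higher. The median log2 ratio was 1.94 for lean, 2.56 for obese and 0.66 for 10-month adipose Tregs. Cd36, a fatty acid transporter that macrophages also use, had 47.8 in lean adipose, 1 unlisted read in LN, 362 CPM in obese and 5.49 in 10-month adipose Tregs. The summed macrophage and dendritic markers had the same order, with 94.4 CPM in LN, 1993 in lean, 7761 in obese and 1434 in 10-month adipose Tregs, and their part in Cd36 was not tested. Acsl4, which activates polyunsaturated fatty acids, had 90.2 in lean adipose and 11.9 in LN Tregs, 7.58-fold higher (6.20 to 9.33), whereas Acsl5 had 9.58 in lean adipose and 97.9 in LN Tregs, 10.2-fold lower (8.18 to 12.9). Fatty acid synthesis genes were higher in 6 of 10 cases and lower in 3, and 3 of the 10 were listed at 0 in LN. Fasn, the synthase, had 30.0 in lean adipose and 5.20 in LN Tregs, 5.77-fold higher (4.23 to 8.01), the elongase genes Elovl6 and Elovl5 were 6.34-fold higher (5.23 to 7.74) and 5.07-fold higher (4.75 to 5.42), and Srebf1, their regulator, had 49.6 in lean adipose and 8 unlisted reads in LN. Oxidation genes were balanced, with 4 of 14 higher and 4 lower, and their median log2 ratio of -0.26 became 0.49 after centring on genes of like length. Cpt1a, the entry enzyme, had 38.8 in lean adipose and 14.1 in LN Tregs, 2.75-fold higher (2.25 to 3.40), and Hadha was 4.07-fold higher (3.47 to 4.79). Acaa2, the last enzyme of the cycle, had 1.89 in lean adipose and 84.7 in LN Tregs, 44.7-fold lower (27.7 to 77.2), but was 2.67-fold lower in obese and 1.81-fold lower in 10-month adipose Tregs.

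Sterol genes were higher in 12 of 23 cases and lower in 2. Srebf2, a regulator of sterol synthesis genes, had 24.6 in lean adipose and 5.09 in LN Tregs, 4.84-fold higher (3.52 to 6.78). Msmo1, a later enzyme, was the main exception, with 56.0 in LN, no read in lean adipose, and 48.7 and 43.3 CPM in obese and 10-month adipose Tregs. Abca1, a cholesterol exporter gene that macrophages share, was 2.50-fold higher (2.20 to 2.84) in lean adipose but had 34.1 CPM in 10-month adipose against 36.0 in LN Tregs. Of 15 nuclear receptors and corepressors, 6 were higher and 4 lower, near the 37.6% and 32.1% of all measured genes. Nr3c1, the glucocorticoid receptor gene, had 1412 in lean adipose and 161 in LN Tregs, 8.78-fold higher (8.32 to 9.27), and Vdr, the vitamin D receptor gene, had 41.9 and no read in LN. Rara, a retinoic acid receptor gene, was 4.87-fold higher (3.84 to 6.22). Rxra, which encodes a partner of PPARG, was listed at 0 in lean adipose and at 1.52 in LN.

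Insulin and growth factor genes were higher in 8 of 18 cases and lower in 4, beside 37.6% and 32.1% of all measured genes. Insr, the insulin receptor gene, had 87.1 in lean adipose and 19.2 in LN Tregs, 4.54-fold higher (3.86 to 5.38), and Irs2, its adaptor, had 450.0 and no read in LN. Igf1r, the receptor gene for insulin-like growth factor 1, had 34.2 in lean adipose and 111 in LN Tregs, 3.24-fold lower (2.85 to 3.70). The 10-month library differed here, with Insr at 8.08 CPM against 18.3 in LN. Among nutrient genes 6 of 12 were higher. The paired amino acid transporter genes Slc3a2 and Slc7a5 were 3.06-fold higher (2.88 to 3.26) and 7.85-fold higher (5.76 to 10.9), and Slc38a2, a glutamine transporter gene, was 4.45-fold higher (4.20 to 4.71). Glycolysis genes went both ways, 9 of 19 higher and 6 lower. After centring on genes of like length 9 were higher and 3 lower. The early enzymes Hk2 and Pfkp were 10.3-fold higher (8.20 to 13.1) and 3.59-fold higher (3.25 to 3.97), and Hif1a, the hypoxia factor gene, had 1300.4 in lean adipose and 275 in LN Tregs, 4.73-fold higher (4.53 to 4.94). The lower members were the enzyme genes Gapdh, Tpi1, Pgk1, Pgam1, Eno1 and Ldha. Ldha had 192 in lean adipose and 649 in LN Tregs, 3.37-fold lower (3.20 to 3.56), but 788 CPM in 10-month adipose against 618 in LN Tregs. Pseudogenes of such enzymes are common, and the sources used here do not say how the authors treated reads that match several copies.

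Heat shock genes, whose products fold proteins under stress, were higher in 11 of 18 cases and lower in 4 (median 1.49). They are driven by heat shock factors, which bind inverted repeats of the letters GAA in promoters. The 250 bases before the start of 3 members are shown, 1 each from the HSP70, small heat shock protein and HSP110 classes; they were chosen after their values were seen. They are RefSeq promoters in build GRCm38.p6, with GAANNTTC or TTCNNGAA in capitals. Hspa1b lies at chr17:34959239-34959488 on the minus strand, Hspb1 at chr5:135887669-135887918 on the plus strand and Hsph1 at chr5:149636316-149636565 on the minus strand.

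Hspa1b: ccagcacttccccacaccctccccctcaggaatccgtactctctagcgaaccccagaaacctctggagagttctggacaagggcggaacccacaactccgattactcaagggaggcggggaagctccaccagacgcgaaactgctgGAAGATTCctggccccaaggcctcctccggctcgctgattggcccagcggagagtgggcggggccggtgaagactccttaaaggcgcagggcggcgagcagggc
Hspb1: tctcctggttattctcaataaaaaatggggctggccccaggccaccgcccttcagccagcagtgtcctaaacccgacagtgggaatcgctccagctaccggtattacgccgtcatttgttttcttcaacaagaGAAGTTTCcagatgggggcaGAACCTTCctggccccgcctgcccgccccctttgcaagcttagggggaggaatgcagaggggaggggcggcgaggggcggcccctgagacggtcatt
Hsph1: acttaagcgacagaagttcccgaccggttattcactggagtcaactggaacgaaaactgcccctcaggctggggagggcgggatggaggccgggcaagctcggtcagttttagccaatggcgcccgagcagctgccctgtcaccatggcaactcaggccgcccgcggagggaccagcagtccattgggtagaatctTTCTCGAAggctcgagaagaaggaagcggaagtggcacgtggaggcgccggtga

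The pair GAANNTTC, which reads the same on both strands, was found in 7 of 14 heat shock promoters matched by symbol (50%), against 7.73% of 27025 genes with a promoter in the table. The pair was no more common among higher genes, at 5.78% of those with a promoter, than among lower ones, at 7.52%, or all measured ones, at 6.38%. Within the list it was also in Fkbp4, a lower member, and neither arrangement was found for Bag3 or Dnajb1, which were higher. The other arrangement, TTCNNGAA, was in 3 of 14 (21.4%), against 8.11%. Both counts hold promoters that are not separate. Hspd1 and Hspe1 lie on opposite strands of overlapping stretches and share the same site, which has both arrangements. The Hspa1a and Hspa1b stretches are nearly the same and carry the same pair. Both Hspb1 pairs lie within 117 bases of the start. Such a match is a description of letters only. Hspa1b, an inducible HSP70 gene, had 1815 in lean adipose and no read in LN, with 578 CPM in obese and 43.6 in 10-month adipose Tregs, and its near-identical copy Hspa1a had 330.0 and no read, so that the split of reads between them is uncertain. Hsph1, an HSP110 chaperone gene, was 79.3-fold higher (65.7 to 96.5), at 953 against 12.02. In obese and 10-month adipose Tregs it was 24.3-fold higher and 4.44-fold higher. Hspb1, a small heat shock protein gene, had 97.1 in lean adipose and 10.6 in LN Tregs, 9.15-fold higher (7.42 to 11.4), but 5.603 CPM in obese and 3.21 in 10-month adipose against 10.1 in LN Tregs. Hsp90aa1 and Dnajb1 were 6.57-fold higher (6.15 to 7.02) and 7.11-fold higher (6.55 to 7.74). All 6 HSP70 and HSP90 genes were higher, while the lower members Ahsa1, Fkbp4, Stip1 and Hsf1 are cochaperones and the factor itself. The summed level of the heat shock genes was 2862 CPM in LN, 10948 in lean, 5307 in obese and 4732 in 10-month adipose Tregs, highest in the lean library, and the median log2 ratios over the shared LN library were 0.41 for obese and 0.61 for 10-month adipose Tregs.

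Most ribosomal protein genes were lower in lean adipose before transcript length was considered. Of 82 measured, 66 were lower and 2, the tissue-restricted paralogs Rpl3l and Rpl39l, higher, with a median log2 ratio of -1.31. They summed to 41893 scaled counts in lean adipose and 104860.2 in LN. The medians were -1.45 for obese and -1.50 for 10-month adipose Tregs, over the same LN library. Rpl17, of the large subunit, had 107 in lean adipose and 1369 in LN Tregs, 12.8-fold lower (11.96 to 13.7), and Rpl21 had 209 in lean adipose and 1234 in LN Tregs, 5.92-fold lower (5.63 to 6.22). Named pseudogenes of these genes went the other way, with 86 of 94 higher and 4 lower, although they summed to only 2489.8 against 235. Among the 94, 61 were listed at 0 in LN and so could only be called higher. Rps19-ps6 had 256 in lean adipose, 1 read in LN, 131 CPM in obese adipose and was listed at 0 in 10-month adipose Tregs. Over all processed pseudogenes, which are intron-free copies of genes, 587 of 684 were higher and 74 lower, and they took 1.17% of listed reads in lean adipose and 0.165% in LN. Their median log2 ratio was 2.18, against 1.73 for obese and 0 for 10-month adipose Tregs. Genes with no value in the compared adipose library entered as 0, and those also listed at 0 in LN gave a ratio of 0. A median of 0 therefore need not mean equal levels. Over the 40 named ribosomal protein pseudogenes measured in the 10-month library or LN, the 10-month median was -0.759, with 9 higher and 19 lower. Copies share most of their sequence with the parent gene, so the assignment of reads among them is uncertain, and its part in these values was not tested.

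In other housekeeping complexes lower genes also outnumbered higher ones as deposited. In the respiratory chain 34 of 78 genes were lower and 3 higher. Ndufa12, of complex I, had 38.4 in lean adipose and 316 in LN Tregs, 8.21-fold lower (7.34 to 9.21), and Atp5g2, of the ATP synthase, was 6.24-fold lower (5.72 to 6.81). Mitochondrial ribosomal proteins were lower in 50 of 76 cases and higher in 2, Mrps5 and Mrps25. The proteasome, which degrades tagged proteins, was lower in 24 of 38 cases. Psmb9, a subunit of the immunoproteasome, had 58.0 in lean adipose and 371 in LN Tregs, 6.39-fold lower (5.82 to 7.02), and Psmd2 was the only higher member. RNAs of the mitochondrial genome took 1.02% of listed reads in lean adipose and 2.34% in LN, with 8 of 12 genes lower. mt-Co3 was the only higher one, at 126 against 4.87, and had only 45 reads in LN, where mt-Co1 had 75151. It was 30.7-fold higher in obese adipose Tregs, but had 2.90 CPM in 10-month adipose against 4.64 in LN Tregs. The part of read assignment in mt-Co3 was not tested.

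Many of these genes have short transcripts, and the ratio followed exonic length. Among 4316 coding genes at 20 or more in both libraries, the 493 with 1000 to 2000 bases of exon had a median log2 ratio of -0.92, with 46.2% lower and 4.67% higher. The 1034 genes of 8000 bases or more had a median of 0.33, with 8.90% lower and 24.95% higher. The obese and 10-month libraries, over the shared LN library, showed medians of -1.14 and -1.05 for the first class and 0.34 and 0.18 for the second. After each gene was centred on genes of like length, 27.5% of 10902 coding genes were lower. Of the ribosomal protein genes 22 of 82 were, a share near that of all genes, with a median of -0.60. Only 2 of these 82 were higher, against 33.9% of all coding genes with a length. Lower after centring were 14 of 78 respiratory chain genes, 32 of 76 mitochondrial ribosomal protein genes and 16 of 38 proteasome genes. In the mitochondrial genome 2 of 12 were. The lower shares of the respiratory chain and the mitochondrial genome were thus below that of all genes. Higher genes were also few, with 3 of 78, 5 of 76, 2 of 38 and 2 of 12 in the same order. The medians used for centring were taken over coding genes at 20 or more in both libraries, members of these groups among them. Centring can therefore remove part of a group's own shift. It was chosen after seeing the data, and whether RNA quality or library preparation moved with length was not tested.

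**Figure D4:**
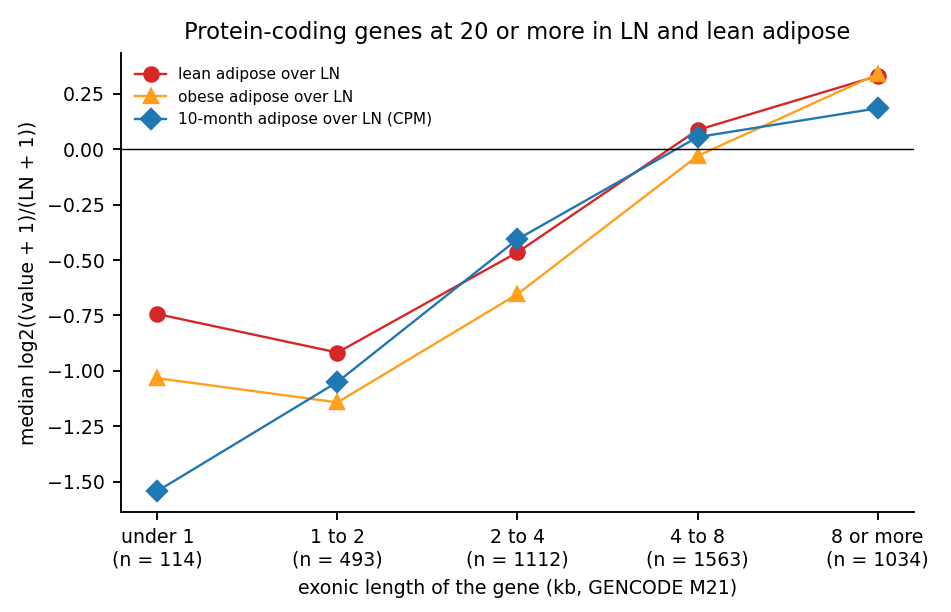
Median log2 ratio over the LN library (vertical axis) by class of exonic length (horizontal axis) for coding genes at 20 or more in both 4-month libraries, shown for lean, obese and 10-month adipose Tregs. The medians go from below 0 in short genes to above 0 in genes of 8000 bases or more in all 3 adipose libraries, which share the LN library.

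Cell division genes leaned towards LN, with 11 of 25 lower and 6 higher, beside 32.1% and 37.6% of all measured genes. Among the 25, 6 were listed at 0 in lean adipose and so could only be called lower. Another 3 were listed at 0 in LN and could only be called higher. The median log2 ratio was -0.56 for lean, -0.69 for obese and 0.04 for 10-month adipose Tregs. Mki67, a marker of cycling cells, had 54.4 in lean adipose and 184 in LN Tregs, 3.39-fold lower (3.06 to 3.75), and Pcna, the replication clamp gene, had 183 in lean adipose and 504 in LN Tregs, 2.75-fold lower (2.60 to 2.91). Ccna2, Ccnb1 and Ccnb2, the mitotic cyclin genes, were all listed at 0 in lean adipose, with 1, 4 and no reads behind them, against 41.6, 49.4 and 120.3 in LN. Top2a, a topoisomerase gene of dividing cells, was within 2-fold, at 52.6 against 74.9, and Bub1, a spindle checkpoint gene, had 28.7 in lean adipose and no read in LN. Mki67 had 248 CPM in 10-month adipose against 175 in LN Tregs, above rather than below it.

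Interferon response genes were lower in 8 of 16 cases and higher in 3, Isg15, Ifit2 and Mx1. Iigp1, a resistance GTPase gene, had 7.35 in lean adipose and 90.4 in LN Tregs, 12.3-fold lower (9.56 to 16.1), and Oas1a, an antiviral enzyme gene, had 4.90 in lean adipose and 58.6 in LN Tregs, 11.95-fold lower (8.78 to 16.6). Isg15, a ubiquitin-like effector gene, had 23.5 in lean adipose and 2.17 in LN Tregs, 10.9-fold higher (6.85 to 18.1). The 5 members of the group at 20 or more in both libraries had a median of 0.17, with none past 2-fold. In obese adipose Tregs Iigp1 had 83.5 CPM, next to 86.1 in LN.

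Stress genes of the endoplasmic reticulum mostly stayed within 2-fold. Of 20 genes, 7 were higher and 2 lower, beside 37.6% and 32.1% of all measured genes. Atf6, a sensor gene, had 155 in lean adipose and 7.04 in LN Tregs, 22.0-fold higher (17.1 to 28.7), and Ern1, the IRE1 sensor gene, had 83.4 and no read in LN. Hspa5, the main chaperone gene, was within 2-fold, at 318 against 523. Annexin, S100 and galectin genes, which bind calcium, membranes or sugars, were higher in 8 of 16 cases, and the lower one was Anxa11. Anxa1, an anti-inflammatory annexin gene, had 379.8 in lean adipose and 7.04 in LN Tregs, 54.0-fold higher (42.2 to 70.1), and was 42.7-fold higher in obese and 308-fold higher in 10-month adipose Tregs. S100a6 had 1288 in lean adipose and 309 in LN Tregs, 4.17-fold higher (4.01 to 4.35).

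Markers of other cells were present in the lean library. Of 21 measured macrophage and dendritic genes, 18 were higher and 1, Flt3, was lower. Among the 21, 14 were listed at 0 in LN and so could only be called higher. The sum of all 21 was 94.4 CPM in LN, 1993 in lean, 7761 in obese and 1434 in 10-month adipose Tregs. Lyz2, the lysozyme gene of myeloid cells, had 304 in lean adipose and 7.36 in LN Tregs, 41.3-fold higher (32.5 to 53.4). The defining macrophage genes Adgre1, Csf1r, Cd68, C1qa and Mrc1 had 13.03, 17.8, 55.7, 42.1 and 175 in lean adipose and no read in LN. MHC class II genes, of antigen-presenting cells, were higher in 5 of 8 cases. H2-Aa had 434 in lean adipose and 48.6 in LN Tregs, 8.92-fold higher (8.09 to 9.85), with 2416 CPM in obese and 77.2 in 10-month adipose Tregs, an order like that of the summed macrophage and dendritic markers. H2-Oa, a chain of B cells, was at 43.9 in LN with no read in lean adipose. The part of these cells in the other values was not tested.

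Chemokine ligand genes were higher in 20 of 21 cases, but 14 of the 21 were listed at 0 in LN and so could only be called higher. Ccl2, the monocyte attractant gene, had 1193 in lean adipose and 14.3 in LN Tregs, 83.5-fold higher (70.3 to 99.9), and Ccl7 had 1003 and no read in LN. In 10-month adipose Tregs Ccl2 and Ccl7 had 53.9 and 27.5 CPM, and in obese ones 849 and 983. Cxcl10, an interferon-induced ligand gene, stayed within 2-fold, at 267 against 159.9. Stromal genes were all higher, 15 of 15, but 13 of them were listed at 0 in LN and so could only be called higher. In their sum the lean library stood apart, with 9.59 CPM in LN, 1419 in lean, 78.4 in obese and 89.1 in 10-month adipose Tregs. Dcn, a matrix proteoglycan gene of fibroblasts, had 752 in lean adipose, 1 read in LN, and 8.27 and 48.0 CPM in obese and 10-month adipose Tregs. Col3a1, a collagen gene, had 98.8 and no read in LN. Ccl2, Ccl7 and Cxcl1 are also made by stromal cells and macrophages.

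Hemoglobin genes were detected in all adipose libraries and not in LN, with a sum of 0 CPM in LN, 584 in lean, 1062 in obese and 1202 in 10-month adipose Tregs. Hba-a1 had 295 in lean adipose and no read in LN, and the near-identical copies Hba-a1 and Hba-a2 are uncertain one by one. B cell and plasma cell genes were higher in 5 of 12 cases and lower in 5, with 3 listed at 0 in LN and 3 in lean adipose. Cd79b, of the B cell receptor, had 86.4 in LN and no read in lean adipose, and Jchain, of plasma cells, had 30.6 in lean adipose and no read in LN. Among genes of CD8 T and NK cells 4 of 7 were lower, and 3 of the 7 were listed at 0 in lean adipose. Cd8a had 14.8 in LN and no read in lean adipose, and Nkg7 was within 2-fold, at 291 against 357. Mast cell and endothelial markers gave 2 measured genes each, of which Hdc and Egfl7 were higher and Cpa3 lower.

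**Figure D5:**
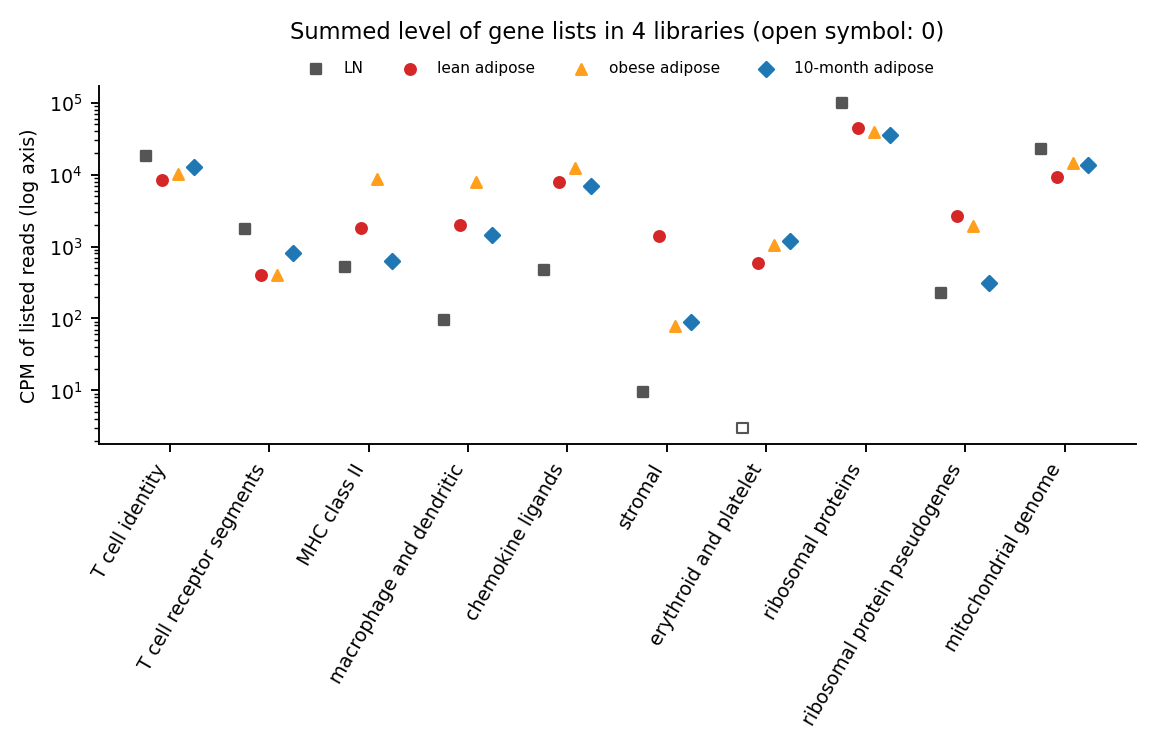
Summed CPM (log axis) of marker and gene lists in LN, lean, obese and 10-month adipose Tregs, 1 library each, with open symbols where the sum is 0. The sums of macrophage and dendritic and of MHC class II genes are highest in the obese library, the stromal sum is highest in the lean one, and the hemoglobin sum is 0 in LN.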

How the data were processed

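Messenger RNA of sorted Tregs was sequenced, 1 library per group. The authors deposited scaled read counts per gene (a signal, not raw counts), with values under 1 listed as 0, and their log2 fold changes, per the file headers and values. Bowtie2 2.0.6, TopHat2 2.0.9 and build mm8 are named in the submitters' processing notes; the counter, annotation and scaling were not given in the sources used here. Log2 ratios were computed with a pseudocount of 1 in Python 3.11.15 with pandas 2.3.3, and 95% Clopper-Pearson intervals with scipy 1.17.1. Such a ratio understates the change of low genes and is no bound for a gene listed at 0, so no fold is given there. Unlisted reads were recovered from the authors' log2 fold changes, in which 0.5 stands for no reads. The calculation was tested on simulated data. Symbols and exonic lengths came from GENCODE M21 (GRCm38), and 13502 of 13541 measured genes had a symbol; no coordinates were taken from the authors' build. Named genes were the anchors of each list, up to 4 members of each with the largest ratio among those at 20 or more in the higher library, and the 12 highest and 12 lowest genes at 20 or more in both libraries and the 8 genes with most reads in each; others were chosen after their values were seen. The members and the 55 lists were chosen with earlier results of these data known. Alternatives were the pseudocount, low-value filter, scaling, size threshold and adipose library. The use of unlisted values and length centring were chosen after seeing the data. With 1 library per group no test was made. Some genes counted in the lists are not reported here by name.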

Additional observations from a re-analysis of the deposited data

How the results depend on the processing

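With 5098 genes higher and 4344 lower as deposited, a minimum of 20 in either library left 2337 higher and 2181 lower, a minimum of 20 in both left 779 and 988, and a 4-fold size left 3092 and 2378; each of these settings counts fewer genes by construction. The other settings kept both counts within 1.5 times. Equal totals gave 5345 and 4106 and moved the median of all genes from 0.14 to 0.28 on the log2 scale, and centring on the median, a shift of 0.14, gave 4730 and 4618. Over 499 recomputed list medians, 412 kept direction and side of 2-fold, 27 moved, 22 passed 2-fold, 34 no longer did and 4 reversed. The reversed medians were -0.20 for extracellular and repair enzymes and -0.34 for signalling feedback (20 or more in both), 0.0237 for immunoglobulin segments (20 or more in either) and -0.759 for ribosomal protein pseudogenes (10-month library, over the 40 measured there or in LN). With the 10-month library 13 single genes reversed, at log2 ratios of -0.0764 for Abca1, -2.31 for Col1a2, 0.0064 for Ezh2, 0.52 for Fos, 0.15 for Hsf1, -1.08 for Insr, 1.53 for Irf7, 0.35 for Ldha, -0.0146 for Med23, 0.50 for Mki67, 0.80 for Myd88, 0.93 for Pnpla2 and 0.95 for Xist; the cause was not tested. No replicate could be left out. No paired analysis was possible because each group has 1 library. Ratios of genes with few reads are limited by depth, since 1 read is worth 0.111 in lean adipose and 0.108 in LN.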

Other observations

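Chromatin regulators differed gene by gene, with 5 of 13 higher and 4 lower, near the 37.6% and 32.1% of all measured genes. Kdm6b, a demethylase gene that acts on the repressive histone mark H3K27me3, had 916 in lean adipose and 33.0 in LN Tregs, 27.7-fold higher (24.7 to 31.2), and was 12.2-fold higher in obese and 11.1-fold higher in 10-month adipose Tregs. Ezh2, the methyltransferase gene for the same mark, had 55.5 in LN and 7 unlisted reads in lean adipose, but 35.4 and 53.2 CPM in obese and 10-month adipose against 52.9 in LN Tregs. Tet2, which oxidises methylated DNA, had 189 in lean adipose and 19.7 in LN Tregs, 9.60-fold higher (8.24 to 11.3), and Dnmt1, the maintenance DNA methyltransferase gene, was 3.98-fold higher (3.25 to 4.92). Mediator, which links transcription factors to RNA polymerase II, had calls in both directions. Of its 14 measured head and middle genes 2 were higher and 8 lower, whereas of 14 tail and kinase genes 7 were higher and 2 lower; this difference was not tested. After centring on genes of like length 8 Mediator genes were higher and 5 lower, against 9 and 10 before. Med8, of the head, had 39.9 in lean adipose and 205 in LN Tregs, 5.14-fold lower (4.59 to 5.77), and Med23, of the tail, had 44.6 in lean adipose and 6.71 in LN Tregs, 6.64-fold higher (5.07 to 8.82). In the 10-month library Med23 was level with LN, at 6.32 against 6.40 CPM.

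Among clock genes 4 of 10 were higher, near the 37.6% of all measured genes, and 1, Tef, lower. Per1 had 169 in lean adipose and 33.5 in LN Tregs, 5.04-fold higher (4.45 to 5.71), while Arntl, the activator gene, was within 2-fold, at 69.5 against 54.5. The sources used here do not give the time of day of collection. Regulators of other T helper programs were higher in 4 of 9 cases, also near that share. Hopx had 399 in lean adipose and 110.3 in LN Tregs, 3.62-fold higher (3.37 to 3.88), Zeb2 had 92.2 in lean adipose and no read in LN, and Runx3 was 2.66-fold lower (2.24 to 3.16). Extracellular proteases and repair enzymes were higher in 8 of 14 cases and lower in 2, Ctsw and Serpina3g. Among the 14, 5 were listed at 0 in LN and so could only be called higher. Adam8 had 101 in lean adipose and no read in LN. Ctsw, a cathepsin gene of lymphocytes, had 23.8 in lean adipose and 169 in LN Tregs, 7.07-fold lower (6.13 to 8.20). Of 12 measured immunoglobulin segments 8 were lower and 2 higher. Among the 12, 7 were listed at 0 in lean adipose and so could only be called lower. Another 2 were listed at 0 in LN and could only be called higher.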
